A study of Mus musculus with 4 samples.

Results

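The genes described here encode the machinery that shortens, decaps and degrades messenger RNA, together with RNA-binding proteins that hand AU-rich and stem-loop messages to it or protect them from it. They were taken by symbol from a fixed list, which was chosen with earlier results of these data known. By symbol, 48 of 48 were found among the 14435 genes of the expression table. All 48 passed the filter on low counts. RNA was sequenced from RAW264.7 cells, an established and virally transformed mouse macrophage line, after 12 h of E. coli lipopolysaccharide (LPS). The Control group is 2 libraries from cells that carried a nonspecific shRNA. The shMettl3 group is 2 libraries from cells whose shRNA targets Mettl3, the enzyme that writes N6-methyladenosine (m6A) on messenger RNA. All 4 libraries received LPS, so the response to LPS itself was not measured. The treatment label of shMettl3 replicate 2 names METTL4, while METTL3 is named in its title and in the series design. Mettl3 was at 30.9 and 29.9 counts-per-million (CPM) in the Control libraries and at 11.5 and 11.2 CPM in the shMettl3 libraries, so both libraries of the group had the lower level. Whether replicates were separate cultures, and whether the shRNA cells were a clone or a pool, is not in the labels. The p-values therefore rest on differences between replicates that may be technical only, and loss of Mettl3 cannot be told apart from other differences between the cells that received each shRNA.

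Most messenger RNAs are degraded from the poly(A) tail inwards. The CCR4-NOT and PAN2-PAN3 deadenylases remove the tail, after which the cap is cleaved by DCP2 and the body is digested by XRN1 from the 5′ end or by the RNA exosome from the 3′ end. Messages enter this route in several ways. The m6A reader YTHDF2 binds CNOT1, the scaffold of CCR4-NOT. Tristetraprolin (Zfp36) and its relatives bind AU-rich elements in 3′ untranslated regions (UTRs) and recruit the same complex, and the endonuclease Regnase-1 (Zc3h12a) and the Roquin proteins (Rc3h1, Rc3h2) act on stem-loops of inflammatory messages. In macrophages these RNA-binding proteins limit the life of cytokine messages after LPS.

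The message of Zfp36 carries AU-rich elements itself and is known to be bound by its own protein. Matching stretches in the transcripts of the RNA-binding factors that were called are therefore shown, with that of Elavl1, which stabilizes AU-rich messages, for comparison. Each line gives the earliest TATTTAT in the 3′ UTR, the DNA form of the preferred binding sequence of the tristetraprolin family, in capitals with 7 bases on either side. Sequences are those of GENCODE M21 transcripts on GRCm38, a later build than the mm9 named in the submitters' processing notes, and are written 5′ to 3′ along the transcript.
Zfp36: ggcccttTATTTATgacgact
Zfp36l1: caaaacgTATTTATtgccaaa
Zfp36l2: tttaactTATTTATtatcttg
Rc3h1: tactcatTATTTATtgagatg
Rc3h2: gctgcttTATTTATctttttc
Elavl1: tgaaaatTATTTATttattta
All 6 stretches lie in the last exon of their transcript, in the 3′ UTR. The positions are chr7:28376970-28376990 (minus strand) for Zfp36, chr12:80108426-80108446 (minus) for Zfp36l1 and chr17:84184918-84184938 (minus) for Zfp36l2. They are chr1:160970047-160970067 (plus) for Rc3h1, chr2:37374760-37374780 (minus) for Rc3h2 and chr8:4285792-4285812 (minus) for Elavl1. The stretch of Elavl1 shows the overlapping repeats of an AU-rich element, and its 3′ UTR held 8 copies of the motif against 3 in each Zfp36 family member. Overlapping copies were each counted. The 3′ UTR of Elavl1 is also longer, at 4218 bases against 774 (Zfp36), 1835 (Zfp36l1) and 1822 (Zfp36l2).

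A second set shows the GGACT nearest to the stop codon, because GGACT is a preferred sequence of the METTL3 complex and m6A is concentrated around stop codons. No methylation was measured, and a match is only a match of letters. The 5 genes are called members chosen after their positions were seen, as examples at or near the stop codon.
Zfp36: gagggcagGGACTgctcattg
Zfp36l2: gagcacttGGACTcgaactct
Tob2: caagtgttGGACTcagcccct
Exosc4: tcactgggGGACTgagtggca
Cnot11: aacgtgcaGGACTtgtttata
The sites of Zfp36 (chr7:28377494-28377514, minus), Zfp36l2 (chr17:84185641-84185661, minus) and Tob2 (chr15:81850540-81850560, minus) start 51, 99 and 176 bases after the stop codon. The site of Exosc4 (chr15:76329701-76329721, plus) runs into the stop codon, and that of Cnot11 (chr1:39545129-39545149, plus) lies in the coding region, 130 bases before the end of the stop codon. Other called members had it near or far from the same point, at -85 (Exosc8), 134 (Rc3h2), -529 (Cnot7), 569 (Edc3), 584 (Zfp36l1), -602 (Pabpc1), 608 (Ddx6), 1012 (Pan3) and -1044 (Dis3) bases, where negative values lie before it. The called members Dcp2, Smg5 and Rc3h1 also held GGACT, and its position in them is not reported here. Both letter strings are common: over 10841 tested genes with a coding transcript, 91.6% had a GGACT somewhere in the transcript and 27.0% had a TATTTAT in the 3′ UTR.

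Markers of the labelled cell type were read before the decay genes. All 10 macrophage markers were present, and their summed level was 13520 and 13820 CPM in the Control and 8939 and 8862 CPM in the shMettl3 libraries, with 6 of 10 lower and Ptprc (CD45) higher by the test. Of the fibroblast markers 4 of 5 were found by symbol in the expression table. They summed to at most 0.0603 CPM in the Control and to 3.03 and 0.345 CPM in the shMettl3 libraries, with Col1a1, Col1a2 and Col3a1 at 0 in both Control libraries. Of the lymphocyte markers 1 of 6, Cd79a, was found there, and it stood at no more than 0.115 CPM. The 4 epithelial markers were not found by symbol in the expression table. The part of the macrophage marker difference in the results on decay genes was not tested, and less RNA per cell and fewer cells with that RNA cannot be told apart in bulk samples. The total estimated counts lay between 16342313 and 17193639 in the 4 libraries.

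Of the 48 decay genes, 10 rose and 7 fell in the shMettl3 libraries (35.4%), while 43.7% of the 11035 tested genes were called. Calls were made where the Benjamini-Hochberg adjusted p of edgeR's quasi-likelihood test, taken over all tested genes, was under 0.05. Fold changes are log2 values of shMettl3 over Control on the TMM scale with their standard error (SE), and n = 2 in each group. By direction, 20.8% of the members rose against 21.4% of all genes, and 14.6% fell against 22.3%. The median absolute log2 fold change was 0.18 for the members and 0.26 for all tested genes. Member values ran from -0.87 (Zfp36l2) to 0.99 (Zfp36l1), short of the 1 on the log2 scale that 8.94% of all genes reached with a call. The CPM of the groups did not overlap for 36 of the 48, against 73.4% of all tested genes. In edgeR's test against a 1.5-fold change 1 member, Zfp36l2, was called, and 8.63% of all genes were. Zfp36l1 and Dcp2 had unadjusted p-values below 0.05 on the rising side of that test, and no rise was called.

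**Figure D1:**
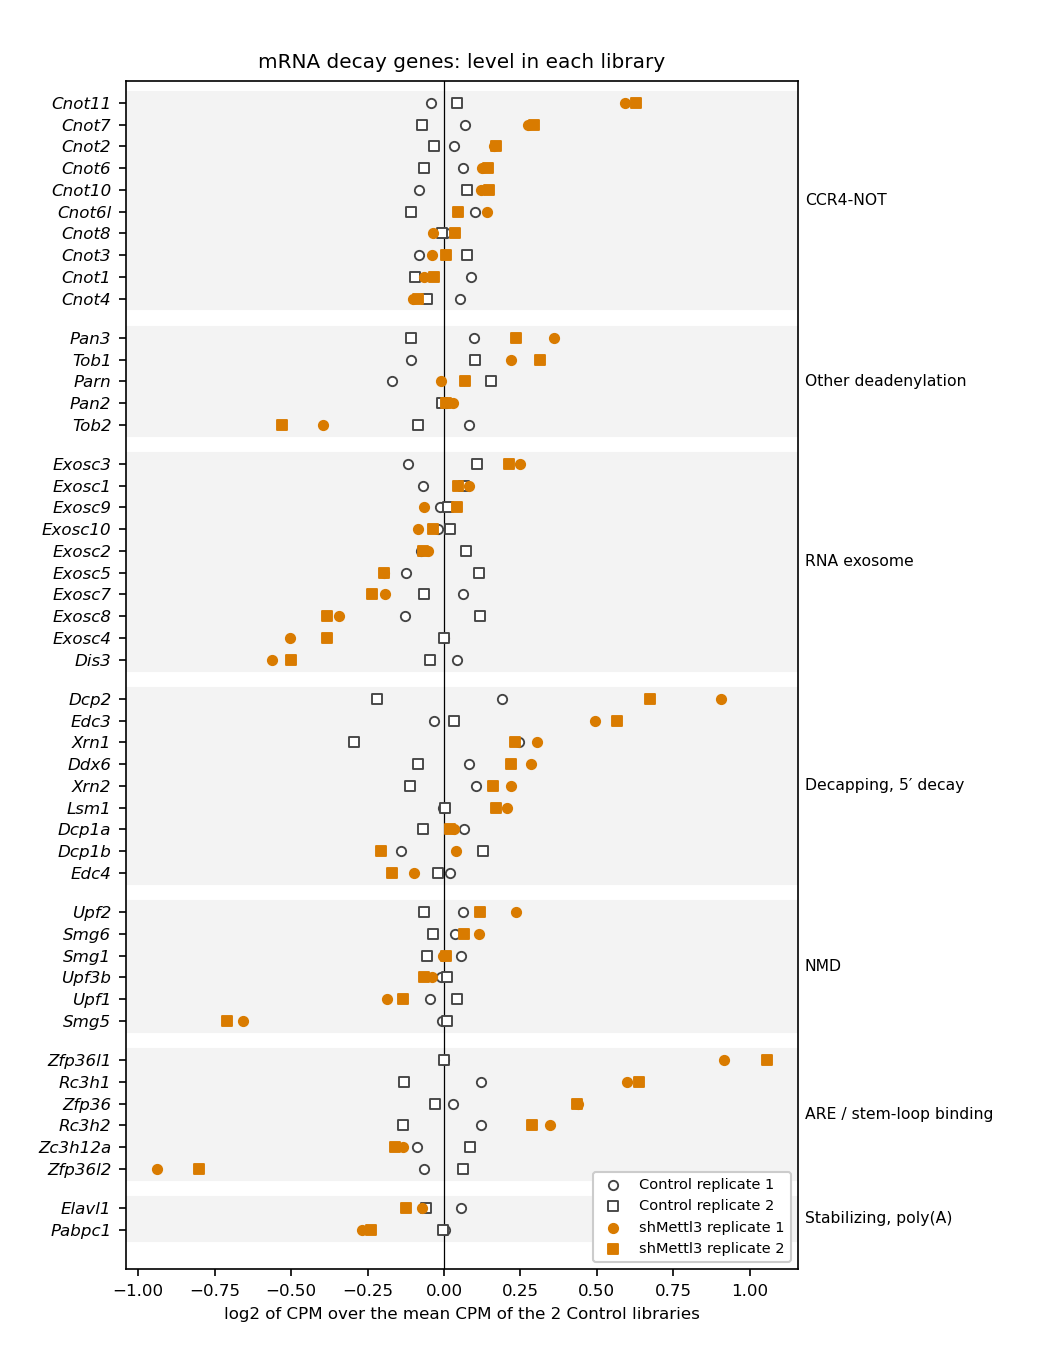
Level of each of the 48 mRNA decay genes in each library, as log2 of its CPM over the mean CPM of the 2 Control libraries, ordered by role and, within a role, by fold change. Open symbols are Control and filled symbols shMettl3 libraries, with circles for replicate 1 and squares for replicate 2. The filled symbols of the 31 genes not called lie near the Control libraries, and Zfp36l1, Dcp2, Zfp36l2 and Smg5 stand farthest from it.

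The direction of these counts is relative to the scaling. Over all tested genes the median log2 fold change was 0.01 with TMM, 0.11 with library size, 0.09 with deposited FPKM and 0.14 with deposited TPM. The members that rose and fell numbered 17 and 5 with library size, 14 and 6 with FPKM, and 18 and 5 with TPM. As shares called, these were 45.8% of the members beside 46.2% of all genes with library size, 41.7% beside 43.1% with FPKM, and 47.9% beside 45.8% with TPM. Of the 17 calls, 10 held under each of 12 other settings, the exception being the test against a 1.5-fold change. These 10 were the rises of Cnot11, Dcp2, Edc3, Zfp36 and Rc3h1 and the falls of Tob2, Exosc4, Dis3, Smg5 and Zfp36l2. The calls on Cnot7, Pan3, Exosc8, Ddx6, Zfp36l1, Rc3h2 and Pabpc1 each depended on at least 1 other setting, named beside each.

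Of the 10 listed genes of the CCR4-NOT complex, the main cytoplasmic deadenylase, 2 rose, Cnot11 and Cnot7. A further core subunit, Cnot9, stands in the list of other decay genes, and it is named here after its values were seen: it had 105 and 99.8 CPM in the Control and 134 and 128 CPM in the shMettl3 libraries (0.36, SE 0.07, edgeR adjusted p = 0.00185). Cnot11 (Entrez gene 52846), a subunit that binds CNOT10 at the amino-terminal end of the scaffold, was at 42.4 and 45.0 CPM in the Control and 65.9 and 67.5 CPM in the shMettl3 libraries. The groups were well apart (0.61, SE 0.07, edgeR adjusted p = 7.51e-05). Cnot10, its partner, had 34.4 and 38.3 CPM against 39.6 and 40.2 CPM and was not called (0.13, SE 0.08). Cnot7 (Entrez gene 18983), 1 of the alternative CAF1 catalytic subunits, had 89.3 and 80.9 CPM against 103 and 104 CPM, a smaller rise with groups that did not overlap (0.29, SE 0.07, edgeR adjusted p = 0.00908). Its call was lost without shMettl3 replicate 1, without shMettl3 replicate 2 and with the trend on GC content removed, where the log2 fold change was 0.14. Cnot8, the other CAF1 subunit, was level in the groups, with 57.1 and 56.6 CPM against 55.4 and 58.3 CPM (0.00, SE 0.07). The alternative CCR4 subunits Cnot6 (0.13, SE 0.07) and Cnot6l (0.09, SE 0.09) were not called either. The scaffold Cnot1, which YTHDF2 contacts, had 203 and 179 CPM against 182 and 187 CPM, so that the groups overlapped (-0.05, SE 0.08). The remaining listed subunits, Cnot2 (0.17) and Cnot3 (-0.02), which form the NOT module, and the ubiquitin ligase Cnot4 (-0.09) were not called. Per length, the listed subunits in TPM, the deposited unit that corrects for transcript length, lay between 8.31 TPM for Cnot6l and 51.6 TPM for Cnot7 in the Control mean. Cnot11 went from 21.8 to 36.8 TPM, a level equal to that of Cnot3 in the shMettl3 libraries.

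Among the other deadenylases and their adaptors, Pan3 rose and Tob2 fell, with 3 of 5 genes not called. The share called was 40.0%, beside 43.7% of all tested genes. Tob2 (Entrez gene 57259), an adaptor of the BTG/TOB family that bridges CAF1 and the poly(A)-binding protein, was at 90.8 and 80.9 CPM in the Control and 65.3 and 59.4 CPM in the shMettl3 libraries (-0.46, SE 0.08, edgeR adjusted p = 0.00104). Its paralog Tob1, less abundant at 6.26 and 7.23 CPM against 7.85 and 8.39 CPM, was not called (0.27, SE 0.15). Pan3 (Entrez gene 72587), the regulatory subunit that brings PAN2 to the tail, had 37.4 and 32.4 CPM against 44.8 and 41.1 CPM (0.30, SE 0.09, edgeR adjusted p = 0.0231). That call was lost in DESeq2, without Control replicate 2, where the log2 fold change was 0.19, and without shMettl3 replicate 1. The catalytic subunit Pan2 (0.02, SE 0.11) and the poly(A)-specific ribonuclease Parn (0.03, SE 0.12) were not called.

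The RNA exosome, a barrel of core subunits with attached nucleases, had 3 of 10 genes fall, and 8 of 10 had a negative fold change. Dis3 (Entrez gene 72662), a processive 3′ exonuclease of the complex, was at 59.6 and 56.1 CPM in the Control and 39.2 and 40.9 CPM in the shMettl3 libraries. The difference was -0.53 on the log2 scale (SE 0.08, edgeR adjusted p = 2.44e-04). Its estimated counts were not whole, as when reads are divided between genes, and the same held for those of Cnot3, Cnot4, Exosc9, Upf2, Upf3b and Smg5 in at least 1 library. Dis3l, opposite in direction to Dis3, had 38.3 and 35.3 CPM in the Control and 48.4 and 50.4 CPM in the shMettl3 libraries (edgeR adjusted p = 0.00152). It stands in the list of other decay genes and is named here after its values were seen. Its call was not followed through the other settings. Exosc10, a further nuclease, had 137 and 141 CPM against 131 and 136 CPM and was not called (-0.06, SE 0.07). Of the barrel subunits, Exosc4 (Entrez gene 109075) had 34.2 CPM in each Control library against 24.1 and 26.2 CPM (-0.44, SE 0.09, edgeR adjusted p = 0.00216). Exosc8 (Entrez gene 69639) had 19.7 and 23.3 CPM against 16.96 and 16.5 CPM (-0.36, SE 0.11, edgeR adjusted p = 0.0230). The call on Exosc8 was lost in DESeq2, with library size alone, with TPM, without Control replicate 2, where the value was -0.24, and without each shMettl3 library. The remaining core genes were not called and ran from -0.21 (Exosc7) through Exosc5 (-0.20), Exosc2 (-0.06), Exosc9 (-0.01) and Exosc1 (0.06) to 0.23 in the cap subunit Exosc3. With library size, FPKM or TPM as the scale, Exosc2, Exosc9 and Exosc10 had positive values, so the count of negative members holds for the TMM scale.

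Decapping and 5′ decay had 3 of 9 genes rise (33.3%, beside 21.4% of all tested genes). Of the 15 decapping and LSM ring genes tested in the list of other decay genes, 3 rose and 1 fell. Dcp2 (Entrez gene 70640), the decapping enzyme, was at 33.3 and 25.1 CPM in the Control and 54.6 and 46.5 CPM in the shMettl3 libraries. The libraries of each group differed from each other, but the groups did not overlap, and the log2 fold change was 0.79 (SE 0.15, edgeR adjusted p = 0.00489). Leaving out Control replicate 1 gave 0.999, and leaving out Control replicate 2 gave 0.60. Edc3 (Entrez gene 353190), an enhancer of decapping that binds DCP2 and DDX6, had 35.6 and 37.2 CPM against 51.2 and 53.9 CPM (0.53, SE 0.08, edgeR adjusted p = 2.83e-04). Ddx6 (Entrez gene 13209), the RNA helicase that links CCR4-NOT to decapping, had 149 and 133 CPM against 171 and 164 CPM (0.25, SE 0.08, edgeR adjusted p = 0.0215). The Ddx6 call was lost without Control replicate 2, where the value was 0.17, without each shMettl3 library and with the GC trend removed. Of the activators of DCP2, Dcp1a had 60.4 and 55.1 CPM against 59.1 and 58.6 CPM (0.03, SE 0.08), Dcp1b had a value of -0.08 (SE 0.15) and the scaffold Edc4 of -0.13 (SE 0.07), none of them called. Xrn1, the cytoplasmic 5′ exonuclease, had 53.0 and 36.5 CPM against 55.3 and 52.6 CPM. The Control libraries differed more in Xrn1 than the groups did, and its log2 fold change (0.27, SE 0.19, not called) became 0.55 with a call when Control replicate 1 was left out and 0.02 when Control replicate 2 was. The nuclear exonuclease Xrn2 (0.19, SE 0.08) and Lsm1, of the ring that binds oligoadenylated ends (0.19, SE 0.09), were not called.

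Of the 6 genes of nonsense-mediated decay, which removes messages with premature stop codons, Smg5 fell and the others were not called. The share called was 16.7%, beside 43.7% of all tested genes. Smg5 (Entrez gene 229512), an adaptor that binds phosphorylated UPF1, was at 144 and 146 CPM in the Control and 91.9 and 88.7 CPM in the shMettl3 libraries. The libraries of a group were close together, and the log2 fold change was -0.68 (SE 0.07, edgeR adjusted p = 1.84e-05). The endonuclease Smg6 had 17.4 and 16.6 CPM against 18.4 and 17.8 CPM (0.09, SE 0.10). The helicase Upf1 (-0.16, SE 0.07), its partners Upf2 (0.18, SE 0.08) and Upf3b (-0.05, SE 0.08), and the kinase Smg1 (0.00, SE 0.07), which phosphorylates UPF1, were likewise not called.

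The RNA-binding decay factors were the group of members with the most calls, as 4 of 6 rose and 1 fell (83.3%, beside 43.7% of all tested genes). Because the members were chosen with earlier results of these data known, this share is a description only. In the list of other decay genes, 12 AU-rich and other RNA-binding protein genes were tested. Of these 3 rose and 2 fell (41.7%). Zfp36 (Entrez gene 22695), which encodes tristetraprolin, was at 284 and 272 CPM in the Control and 376 CPM in each shMettl3 library (0.44, SE 0.07, edgeR adjusted p = 4.905e-04). Zfp36l2 (Entrez gene 12193), its relative, moved in the opposite direction, from 142 and 155 CPM to 77.3 and 85.1 CPM (-0.87, SE 0.08, edgeR adjusted p = 9.50e-06). Zfp36l1 (Entrez gene 12192), the least abundant member of the whole list, had estimated counts of 22 and 22 against 42 and 48, which correspond to 1.32 and 1.33 CPM in the Control and 2.50 and 2.76 CPM in the shMettl3 libraries. The groups did not overlap (0.99, SE 0.26, edgeR adjusted p = 0.0105), and the call was lost in DESeq2 and without shMettl3 replicate 2. Rc3h1 (Entrez gene 381305), which encodes Roquin-1, had 54.8 and 46.0 CPM against 76.3 and 78.3 CPM (0.62, SE 0.09, edgeR adjusted p = 2.40e-04). Rc3h2 (Entrez gene 319817), for Roquin-2, had 42.5 and 35.6 CPM against 49.6 and 47.7 CPM (0.32, SE 0.09, edgeR adjusted p = 0.0175). The Rc3h2 call was lost in DESeq2, without Control replicate 2 (0.19), without shMettl3 replicate 1 and with the GC trend removed (0.13). Zc3h12a, the endonuclease Regnase-1 that shares stem-loop targets with Roquin, had 158 and 178 CPM against 153 and 150 CPM and was not called (-0.15, SE 0.08). Per length, Zfp36 stood far above its relatives in both groups, at 260 and 388 mean TPM, against 66.0 and 40.0 TPM for Zfp36l2 and 0.71 and 1.54 TPM for Zfp36l1.

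Of the proteins that bind poly(A) or stabilize messages, Pabpc1 (Entrez gene 18458), the cytoplasmic poly(A)-binding protein, had 2644 and 2630 CPM in the Control and 2192 and 2234 CPM in the shMettl3 libraries (-0.25, SE 0.06, edgeR adjusted p = 0.00729). Its call was lost with library size, FPKM and TPM and without each shMettl3 library. Elavl1, which encodes HuR and competes with decay factors for AU-rich elements, had 151 and 140 CPM against 138 and 133 CPM and was not called (-0.10, SE 0.07).

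**Figure D2:**
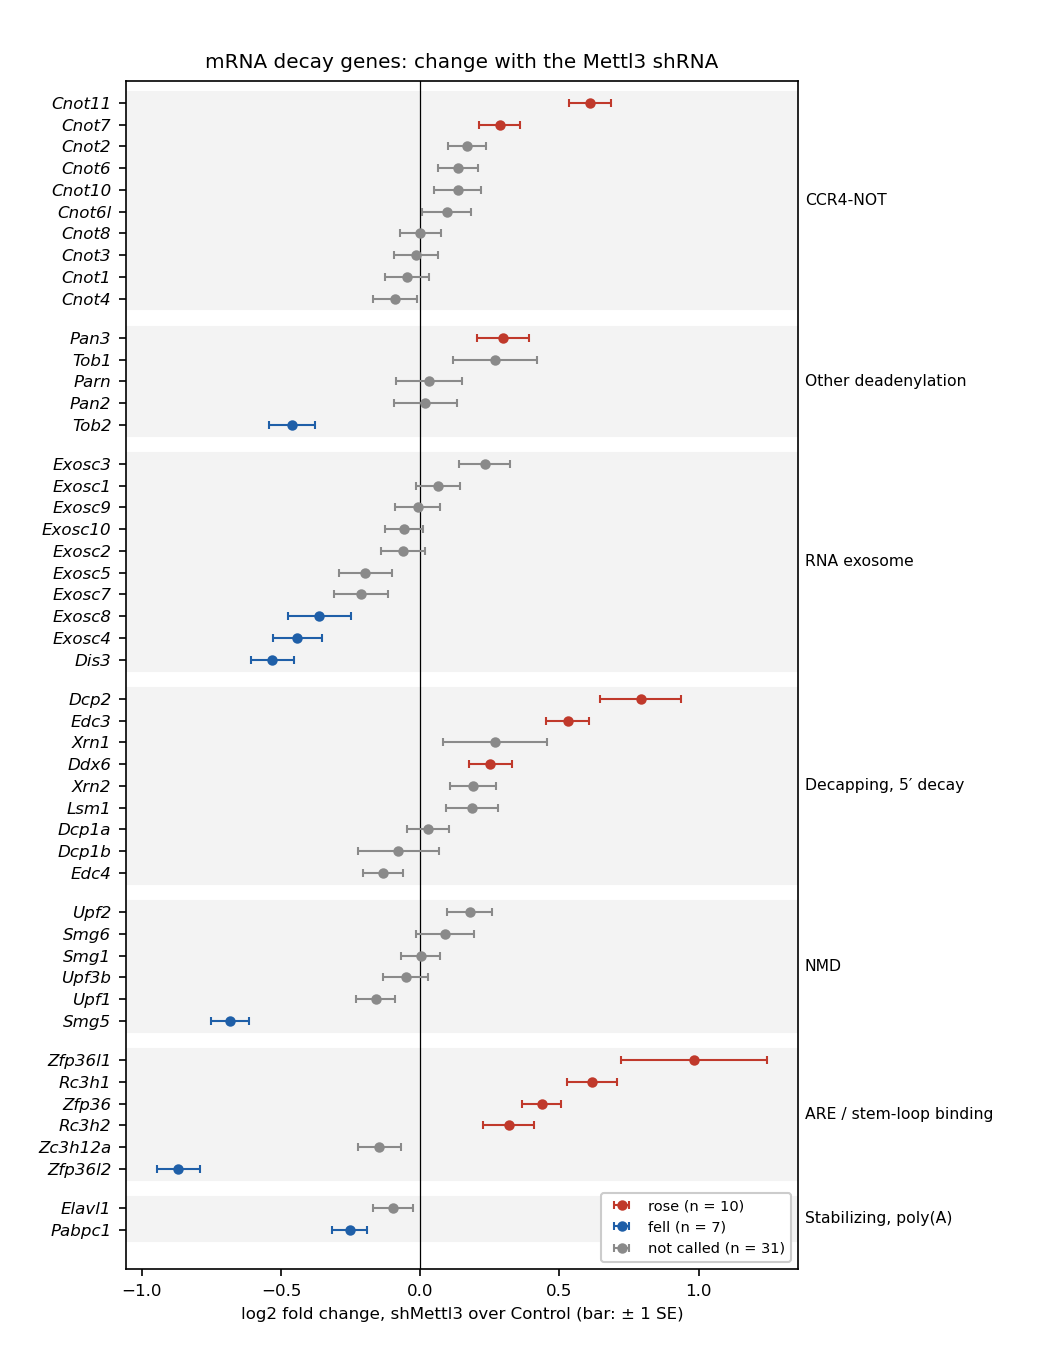
Log2 fold change of each mRNA decay gene, shMettl3 over Control, with bars of 1 SE, by role, with red for genes that rose, blue for genes that fell and grey for genes not called by edgeR's quasi-likelihood test. Among the 6 RNA-binding factors 4 rose, the 10 exosome genes shown hold 3 of the 7 falls and no rise, and the bar of Zfp36l1 is the widest. Of all tested genes, 21.4% rose and 22.3% fell.

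Leaving out Control replicate 1 gave calls to 8 further members, Cnot2, Cnot6, Exosc5, Upf1, Upf2, Xrn1, Xrn2 and Zc3h12a, for totals of 15 that rose and 10 that fell, or 52.1% of the members beside 47.5% of all genes. These values rest on 1 Control library, whose spread is assumed to be that of the shMettl3 group. Without Control replicate 2 the totals were 8 and 7 (31.2% beside 43.0%), with Exosc3 and Exosc7 called in addition. Without shMettl3 replicate 1 they were 6 and 5 (22.9% beside 27.7%), and without shMettl3 replicate 2 they were 7 and 5 (25.0% beside 30.7%). The members differed between the Control libraries by a median of 0.13 on the log2 scale and between the shMettl3 libraries by 0.05, against 0.12 and 0.09 for all tested genes.

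Because the scaling between libraries moves the counts of rises and falls, ratios of TPM between partner or alternative subunits were also taken within each library, where scaling cancels. The pairs were chosen after the fold changes were seen, so the ratios are a description, and 2 libraries against 2 cannot give an exact two-sided permutation p below 0.333. Zfp36 over Zfp36l2 was 4.21 and 3.69 in the Control and 10.2 and 9.28 in the shMettl3 libraries. Smg5 over Smg6 was 9.21 and 10.4 against 5.14 and 5.32. Dcp2 over its activator Dcp1a was 0.352 and 0.292 against 0.590 and 0.506, and Edc3 over Edc4 was 0.580 and 0.626 against 0.860 and 0.982. The groups did not overlap in any of these 4 ratios, and 12 of the 14 pairs taken had no overlap. For single genes, the groups did not overlap in CPM for 73.4% of all tested genes. Dis3 over Exosc10, each an exosome nuclease, was 0.348 and 0.324 against 0.251 and 0.254. Tob1 over Tob2 was 0.124 and 0.161 against 0.216 and 0.254. Of the deadenylase pairs, Cnot7 over Cnot8 was 1.18 and 1.08 against 1.41 and 1.36, and Cnot11 over Cnot10 was 1.10 and 1.05 against 1.48 and 1.51. Cnot6 over Cnot6l (3.20 and 3.33 against 3.21 and 3.46) and Xrn1 over Xrn2 (0.0887 and 0.0706 against 0.0861 and 0.0844) overlapped between the groups.

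**Figure D3:**
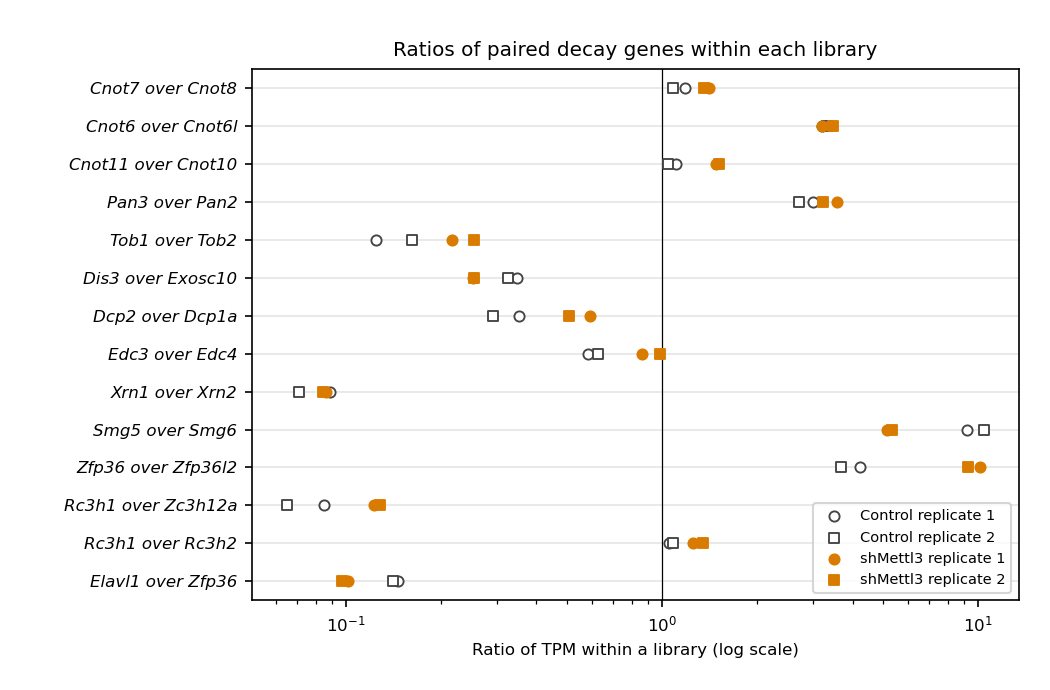
Ratio of the TPM of paired mRNA decay genes within each library, on a log axis, with open symbols for Control and filled symbols for shMettl3 libraries. Zfp36 over Zfp36l2 shows the widest gap between the groups, while the symbols of Cnot6 over Cnot6l and of Xrn1 over Xrn2 overlap.

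The 3′ UTRs of the members are described next, without a test. A transcript with a coding region was found for 47 of the 48 members, Cnot8 being the exception. The median 3′ UTR was 3377 bases for the 10 members that rose, 1230 bases for the 7 that fell and 873 bases for 30 not called, against 934 bases for all 10841 tested genes with such a transcript. TATTTAT was searched on the transcript strand. It stood in the 3′ UTR of 8 of the 10 that rose, the exceptions being Cnot11 and Ddx6, of 2 of the 7 that fell (Zfp36l2 and Tob2) and of 5 of the 30 not called. Over the 10841 genes the share was 27.0%. A longer 3′ UTR has more room for a match, and the members that rose had the longest median. The shorter ATTTA, which every TATTTAT contains, was found in 80.9% of the members and 65.2% of all genes. Rc3h2 had 25 copies of it, Rc3h1 had 20, Dcp2 had 18 and Elavl1 had 17. GGACT was found in 45 of the 47 transcripts.

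Across the transcriptome the same features went with smaller differences. When all tested genes were divided into 5 equal classes of 3′ UTR length, 25.7% rose in the class with the longest and 18.7% in the class with the shortest. Of the 11 members in the longest class, 6 rose. Of genes with a TATTTAT, 25.1% rose and 18.9% fell, and of genes without it 19.7% rose. GC content of the transcript went with the fold change more clearly, with Spearman's rho of -0.51 over the 47 members and -0.23 over the 10841 genes. In the lowest of 5 classes of GC content 28.2% of all genes rose and 11.9% fell, and in the highest 13.4% rose and 34.1% fell. The points of these correlations share the same 4 libraries, and genes are not independent replicates, so no p is given. The members that rose had a median GC content of 45.2%, and those that fell of 53.4%. With the GC trend removed, 7 members rose and 7 fell (29.2%, beside 43.5% of all genes). In that setting Cnot7, Ddx6 and Rc3h2 lost their calls. The part of 3′ UTR length and base composition in the other changes was not tested.

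**Figure D4:**
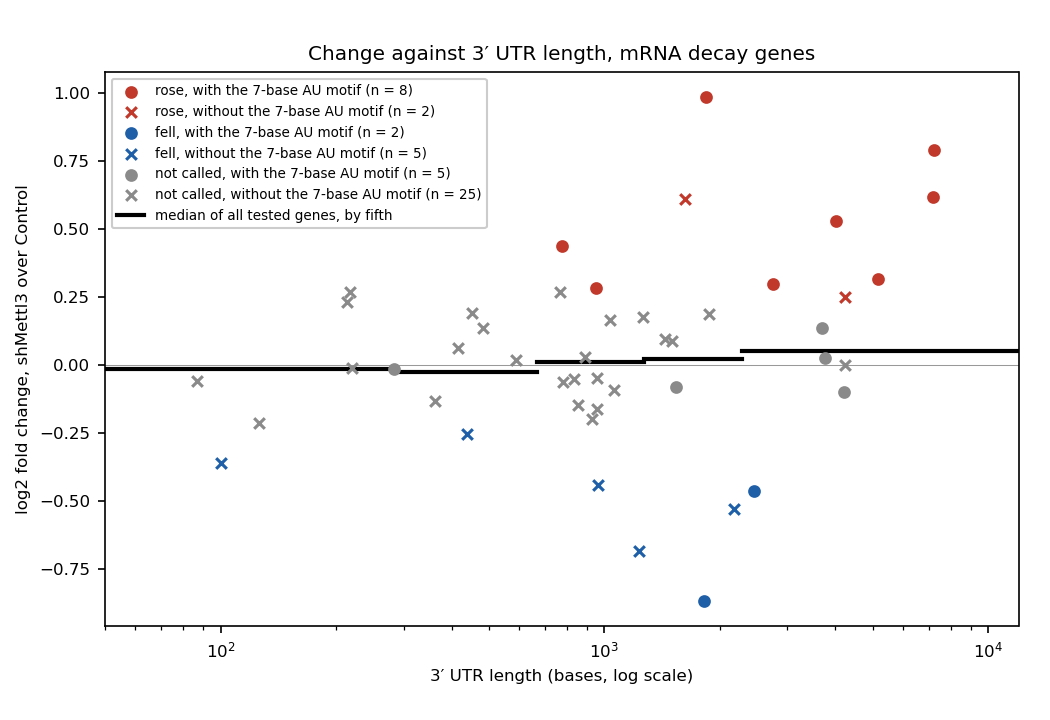
Log2 fold change of 47 mRNA decay genes, shMettl3 over Control, against the length of the 3′ UTR in bases on a log axis. Colours give the call, filled circles mark a 3′ UTR with TATTTAT and crosses one without, and black lines give the median of all tested genes in each of 5 equal classes of 3′ UTR length. Most red points are circles and lie to the right, while the black lines stay near 0.

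Other genes of the decay pathways were read from a second list of 84, of which 83 were tested. That list too was chosen with earlier results of these data known. 25 rose (30.1%) and 10 fell (12.0%), beside the 21.4% and 22.3% of all genes, and the median log2 fold change was 0.03. Among called genes with at least 10 CPM in the higher group, the largest rises described here were in Btg2 (1.17, SE 0.10), an anti-proliferative partner of CAF1, Zc3h12c (0.86, SE 0.09), a relative of Regnase-1, Rbm7 (0.82, SE 0.08), of the nuclear exosome targeting complex, and Nudt16 (0.66, SE 0.14), a decapping enzyme. The 5 largest falls were in the nonsense-mediated decay genes Dhx34 (-0.72, SE 0.11) and Smg9 (-0.52, SE 0.11), the exon junction genes Magohb (-0.42, SE 0.12) and Rbm8a (-0.38, SE 0.08), and Zcchc7 (-0.35, SE 0.11), of a complex that adds short tails for the nuclear exosome. With library size 4 of this list fell, with FPKM and TPM 5, and without either shMettl3 library 5, while with the GC trend removed 17 fell. The calls on Magohb and Zcchc7 were lost in DESeq2, with library size and without shMettl3 replicate 2, and that on Zcchc7 also on the FPKM and TPM scales and when Control replicate 1 or shMettl3 replicate 1 was left out.

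Messages that textbooks give as targets of these RNA-binding proteins went both ways. Of 30 listed, 28 were tested, and 10 rose and 9 fell, 67.9% against 43.7% of all genes, with a median log2 fold change of 0.02. The list was chosen with earlier results of these data known, so its share called is a description only. By the same minimum of 10 CPM, the 3 largest rises were in the cytokine Il6 (2.07), the nuclear IkB protein gene Nfkbiz (0.79) and Ptgs2 (0.74), which encodes cyclooxygenase-2. The 3 largest falls were in Fos (-1.85), the phosphatase gene Dusp1 (-1.09) and Myc (-0.87). Il6 and Nfkbiz are targets of Regnase-1 and Roquin. Without shMettl3 replicate 1 the number that rose was 6. RNA levels were measured at a single time, so changes in decay and in transcription cannot be told apart.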

How the data were processed

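RNA was measured in 4 libraries by sequencing of PCR-amplified cDNA made from poly(A) tails by template switching, as single-end reads of 50 bases, per the labels' protocols. These name no molecular identifiers and no step that marks strand, so overlapping antisense genes cannot be told apart. The authors deposited, per the file headers, estimated counts, FPKM and TPM for 14435 genes. The submitters' processing notes name HISAT2 2.0.4, Bowtie2 2.2.5, RSEM 1.2.12 and build mm9, with no role or order, and the annotation is not given in the sources used here. 0 columns belong to other samples. Estimated counts, which were not whole for 1808 genes, were rounded. Genes were kept by filterByExpr (minimum count 10, total 15), which left 11035, scaled by TMM and tested with edgeR 4.0.16 (R 4.3.3, robust quasi-likelihood, 2 residual degrees of freedom, no covariate). Standard errors were taken from the F statistic and the fold change. Alternatives used DESeq2 1.42.0, limma 3.58.1 on log2(TPM + 1) and log2(FPKM + 1), library size, 2 other filters, a test against a 1.5-fold change, a replicate block, each library left out, and, chosen after seeing the data, an offset for each library's GC trend. The fits were tested on simulated counts. TPM was used to compare levels between genes, since it is per length.

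The members and gene lists were chosen with earlier results of these data known. All called members were named with full values. Of the other lists, the 5 (decay genes) or 3 (target messages) largest rises and falls among called genes with at least 10 CPM in the higher group were named, except 1 that is not reported here. A planned search for zinc fingers in the proteins of the Zfp36 family was not run. Transcripts came from GENCODE M21, taking the longest coding one for each Entrez gene. Totals of 16342313 to 17193639 estimated counts a library limit precision for low genes, and errors cover counting and spread after PCR.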

Additional observations from a re-analysis of the deposited data

How the results depend on the processing

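The 17 called members kept their direction in each of 13 alternatives that tested them (Zfp36l1 was below a mean CPM of 5). Against a 1.5-fold change, edgeR called 952 genes in all, of which 0 members rose (2 at an unadjusted p below 0.05) and 1 fell, 4 other decay genes rose and 1 fell, and 2 target messages rose and 4 fell. DESeq2 called 7 members that rose and 6 that fell (27.1%, beside 31.5% of all genes). The number of members that rose was 17 with library size and 18 with TPM. The other decay genes that fell numbered 4 with library size, 5 with FPKM, 5 with TPM and 17 with the GC trend removed. With 1 library left out, the genes called ran from 3095 to 5324, the members that rose from 6 to 15, the other decay genes that fell from 5 to 15 and the target messages that rose from 6 to 12. The cause of these shifts was not tested.

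Sign changes were seen in 17 members, none of them called in a setting where the sign turned. With library size the log2 fold change was 0.0470 for Cnot1, 0.0802 for Cnot3, 0.0032 for Cnot4, 0.0951 for Cnot8, 0.0340 for Exosc2, 0.0854 for Exosc9, 0.0359 for Exosc10, 0.0156 for Dcp1b and 0.0427 for Upf3b. With FPKM it was 0.0469 for Cnot1, 0.0644 for Cnot3, 0.0803 for Cnot8, 0.0225 for Exosc2, 0.0687 for Exosc9, 0.0283 for Exosc10, 0.0093 for Dcp1b and 0.0009 for Upf3b. With TPM it was 0.102 for Cnot1, 0.119 for Cnot3, 0.135 for Cnot8, 0.0772 for Exosc2, 0.123 for Exosc9, 0.0831 for Exosc10, 0.0579 for Dcp1b, 0.0480 for Edc4, 0.0540 for Upf3b and 0.0479 for Elavl1. With the GC trend removed it was 0.105 for Cnot3, -0.0281 for Cnot6, -0.0693 for Cnot6l, -0.0122 for Parn, -0.0147 for Dcp1a and -0.0819 for Smg1. Smg1 had -0.0038 in DESeq2 and -0.0116 with no filter, and Cnot8 had 0.0078 with a mean CPM of at least 5. With 1 library left out the values ran from -0.142 to 0.0338 for Cnot1, -0.104 to 0.0597 for Cnot3, -0.0116 to 0.191 for Cnot6l, -0.0380 to 0.0374 for Cnot8, -0.134 to 0.196 for Parn, -0.0148 to 0.128 for Exosc1, -0.144 to 0.0076 for Exosc2, -0.0653 to 0.0439 for Exosc9, -0.0430 to 0.0826 for Dcp1a, -0.22 to 0.0547 for Dcp1b and -0.0583 to 0.0455 for Smg1. The cause was not tested.

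The titles share replicate numbers without saying what a number stands for, and the deviations of same-numbered libraries correlated at 0.146 across genes. With the replicate block 11 members rose and 7 fell (37.5%), Xrn2 being the added call. In all, 5116 genes were called in that setting (46.4%). With the transcript of the longest 3′ UTR taken for each gene, 17 members held TATTTAT in place of 15. Zfp36l1 rested on 22 to 48 counts a library, and its SE of 0.26 was the widest among the members.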
